A study of Mus musculus with 4 samples.

Results

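The genes described here are the mouse genes that encode collagen chains. They were chosen by name alone, as the protein-coding genes of the total count table whose symbol is Col, a number, the letter a and a second number, and 44 of the 22298 genes of the table met that rule. Collagens are extracellular proteins in which 3 chains wind into a triple helix, made of the same chain or of different ones. The fibrillar types form the tensile fibres of connective tissue, type IV forms the sheet of basement membranes, FACIT collagens (fibril-associated collagens with interrupted triple helices) sit on the surface of fibres, and type VI forms beaded filaments. In adipose tissue every adipocyte is wrapped in a basement membrane, fibroblast-like stromal cells make most of the fibrillar collagen, and type VI collagen is known as an abundant adipose matrix component that can restrain adipocyte expansion.

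Gene expression was measured by bulk RNA sequencing in brown adipose tissue of mouse fetuses at E18.5, the last day of gestation. The strain is labelled C57BL/6 and named C57BL/6J in the methods of the study. The dams drank tap water (control) or 20% (w/v) fructose in water (fructose), and each group holds 2 libraries. The tissue was collected from fetuses labelled male. The number of fetuses and of litters behind a library is not given in the sources used here, so each p-value below measures only the spread between libraries. Values are given in the order control 1, control 2, fructose 1 and fructose 2. The total counts per library were 19224529, 18542897, 22461298 and 23645147, and 15008, 14859, 15311 and 15411 genes had at least 1 count. Expression is given as CPM (counts scaled to a common library size of 1e+06) after TMM normalization, a scaling of library sizes by the trimmed mean of log ratios between libraries. A floor of 3 counts, the upper limit that a count of 0 allows, was 0.158, 0.166, 0.133 and 0.123 CPM, and floors and counting intervals cover counting error only.

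The brown adipocyte markers Ucp1 and Cidea were abundant in all 4 libraries, and all 10 genes of their list were tested. Levels ranged widely within the list, with Dio2 at 4.435, 6.823, 9.068 and 7.433 CPM. Ucp1, the uncoupling protein that defines brown fat, was its most abundant gene at 9709, 12430.0, 11009 and 9610 CPM, counted per gene and not per length. Cidea, a lipid droplet protein, was at 3238, 3344, 3312 and 3259.8 CPM. Ucp1 and Cidea levels overlapped between the groups, other markers of the list differed as given with the cell type markers, and the summed level of the 10 markers was 22826, 24882, 23078 and 21299.8 CPM. The sex label was not met in the fructose group: genes on the Y chromosome had 422 counts in control 1, 390 in control 2, and 0 counts in fructose 1 and 0 in fructose 2. Both libraries labelled fructose therefore go against their label of male, no fructose library without this conflict exists, and the effects of fetal sex and of maternal fructose cannot be told apart in any comparison below.

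Collagen transcripts were abundant, and their summed level overlapped between the groups. The 44 genes together took up 219521, 186294, 252837 and 277110 counts, which is 1.14%, 1%, 1.13% and 1.17% of the library. Their summed level was 11589, 10334, 11184 and 11317 CPM, so the fructose libraries lay between the control libraries. Of the 33 collagen genes with enough counts to be tested, Col27a1, a minor fibrillar chain, and Col4a5, a basement membrane chain, were higher in the fructose libraries by fold changes of 1.48 and 1.31, and no collagen gene was lower. The major fibrillar chains, the major type IV chains and the type VI chains did not pass the test in either direction. In bulk tissue such as this, fewer cells of a type and less RNA per cell cannot be told apart.

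A gene was called when its adjusted p was under 0.05 in the quasi-likelihood test of edgeR, with Benjamini-Hochberg adjustment over all 12888 tested genes. By that rule 2 collagen genes were higher, beside 15.5% of all tested genes, and 0 were lower, beside 10.7%. At an unadjusted p under 0.05 in edgeR 4 were higher and 0 lower, beside 21.5% and 17.8% of all tested genes, and DESeq2 called 1 higher and 0 lower, beside 10.4% and 8.8% of the genes to which it gave an adjusted p. An unadjusted p under 0.05 with a fold change above 1.3 also gave 2 higher and 0 lower with the p of edgeR, beside 17.6% and 6.18% of all tested genes. With the p of DESeq2, which the study used with these thresholds, it gave 1 higher and 0 lower, beside 10.8% and 4.65%. Both fructose libraries lay above both control libraries in 11 collagen genes, beside 33.4% of all tested genes, and below both in 5, beside 31.6%. The called share of the tested members, 6.06%, was under the background share of higher genes. Without control 1 the count of higher genes was 5 (Col27a1, Col5a2, Col5a3, Col6a6 and Col15a1), beside 16.8% of all genes tested in that setting. It was 1 without control 2 (14.4% of all genes) and 1 without fructose 1 (11.6%). Without control 2 the count of lower genes was 2, namely Col6a1 (log2 fold change -0.27) and Col6a2 (-0.29), beside 11.2% of all genes.

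The log2 fold change of fructose over control was positive in 22 and negative in 11 of the 33 tested members. It ran from -0.55 to 0.94, with a median of 0.080 beside a median of 0.0025 over all tested genes, and this median turned to -0.11 with the trend on gene length removed and to -0.020 with that on GC content removed as well. With the trend on GC content removed alone it stayed positive and was larger, as given at the end. The 2 control libraries were farther apart than the median of 0.080, with a median log2 difference of -0.11 between control 2 and control 1 over the members, with 23 genes lower in control 2 and 10 higher. Over all tested genes this median was -0.0092. Between fructose 2 and fructose 1 the members differed by a median of -0.0013, with 17 lower and 16 higher in fructose 2. Control 2 was thus the library with the lowest summed collagen level.

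A handful of genes held most of the collagen CPM, a share that also grows with gene length. Col4a1, Col3a1, Col1a1, Col4a2 and Col1a2 held 74.7%, 75.1%, 75.1% and 76.0% of the collagen CPM. By class, the fibrillar genes held 48.0%, 46.6%, 48.8% and 48.5% of it and the basement membrane genes 32.9%, 34.9%, 33.1% and 33.9%. The beaded filament genes of type VI held 14.1%, 13.7%, 12.8% and 12.6%, so that both fructose libraries were under both control libraries. Multiplexins, which carry glycosaminoglycan chains and lie at basement membranes, held 3.20%, 2.89%, 3.45% and 3.22%. FACIT genes held 1.64%, 1.88%, 1.66% and 1.70%. Transmembrane collagens held 0.0597%, 0.0789%, 0.0708% and 0.0725%. The short chain network genes held 0.0251%, 0.0242%, 0.0225% and 0.0191%, and the anchoring and other genes 0.0196%, 0.0268%, 0.0265% and 0.0256%. In the fibrillar and multiplexin shares both fructose libraries were above both control libraries, and in the short chain share both were below. The groups overlapped in the basement membrane, FACIT, transmembrane and anchoring shares. Among single tested genes, both fructose libraries lay above both control libraries in 33.4% and below both in 31.6%. The shares add up to the whole and are not independent, and no share was tested. The summed CPM of the fibrillar, multiplexin, beaded filament and short chain genes overlapped between the groups.

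Levels of different genes can be compared only per length, here as mean CPM over the 4 libraries per kilobase of the union of annotated exons. On this scale Col4a1 was at 313, Col3a1 at 223, Col1a1 at 216, Col4a2 at 208 and Col6a1 at 133 CPM per kilobase. Lower levels per kilobase were seen for Col1a2 at 83.7, Col6a2 at 61.8, Col5a1 at 45.6, Col15a1 at 40.6 and Col6a3 at 29.3. Col4a1 ranked at the top in all 4 libraries by this length. With the length of the longest annotated transcript in its place, Col3a1 was at the top in all 4 libraries, at a mean of 393 CPM per kilobase against 353 for Col4a1. Col1a2 moved to 194 CPM per kilobase by that length, since its annotated exons add up to far more than its longest transcript. The leading position therefore depends on the length chosen.

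**Figure D1:**
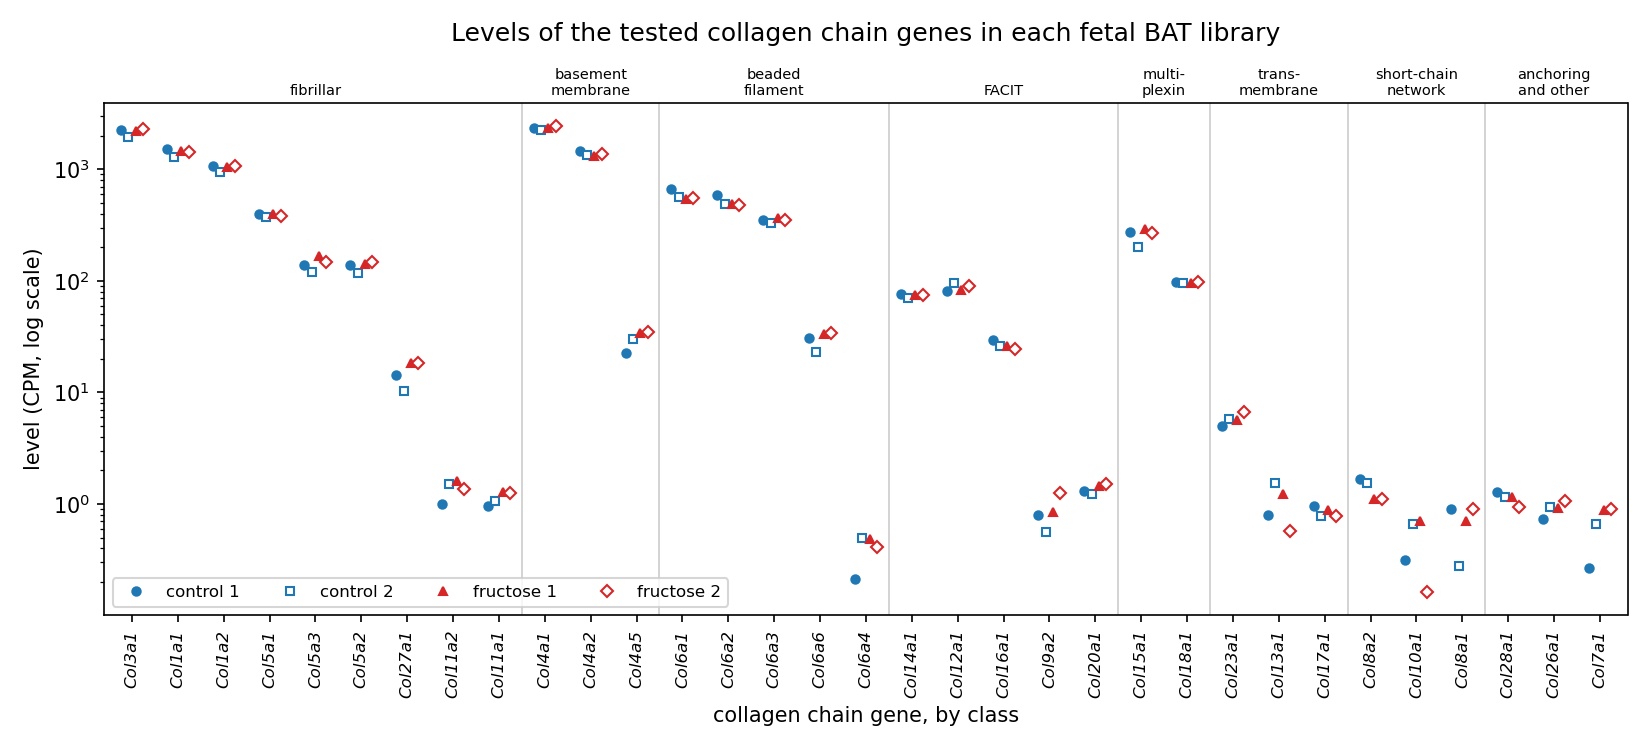
Level of each of the 33 tested collagen genes in every library, in CPM on a log axis, with genes grouped by class and libraries marked by group. Col3a1 lies between 1952 and 2285 CPM. Both fructose libraries lie above both control libraries in 11 genes and below both in 5, beside 33.4% and 31.6% of all tested genes.

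Fibrillar collagens are the rope-forming types, and 9 of the 11 genes of this class were tested. All 9 had a positive log2 fold change, beside 6482 of all 12888 tested genes, with a class median of 0.17. By edgeR 1 was called higher and 2 at an unadjusted p under 0.05, beside 15.5% and 21.5% of all tested genes. All 9 stayed positive with the trend on GC content removed alone. With the trend on gene length removed Col1a1, Col1a2, Col3a1, Col5a1 and Col5a2 turned negative, as did Col11a1 (-0.056), and DESeq2 turned Col5a1. With both this trend and that on GC content removed the class median was -0.077. Their summed level was 5561, 4812, 5457 and 5487 CPM, within the range of the control libraries. Col3a1 (ENSMUSG00000026043, chr1:45311538-45349706, plus strand, GRCm38), the type III chain of pliable fibres, was at 2273, 1952, 2231 and 2285 CPM. Col1a1 (ENSMUSG00000001506, chr11:94936224-94953042, plus strand), the main chain of type I collagen, was at 1520.1, 1286, 1449 and 1425 CPM. Col1a2 (ENSMUSG00000029661, chr6:4504814-4541544, plus strand), which joins a pair of Col1a1 chains in the type I helix, was at 1075, 948, 1051 and 1083 CPM. In each of these 3 genes control 2 was the lowest library, and for Col1a1 control 1 was the highest, so the groups overlapped. Their log2 fold changes were 0.10 ± 0.10 for Col3a1, 0.03 ± 0.10 for Col1a1 and 0.08 ± 0.09 for Col1a2 (± SE, 2 libraries per group). The 95% intervals were -0.12 to 0.31, -0.18 to 0.25 and -0.12 to 0.28, and without control 2 all 3 estimates turned negative, at -0.0092, -0.080 and -0.0097.

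Type V chains take part in starting fibrils and setting their width. Col5a1 was at 397.5, 376.0, 395.8 and 378.6 CPM, with overlapping groups and a log2 fold change of 0.0016 ± 0.08. Its sign was negative by DESeq2 (-0.013), and it was -0.038 without control 2 and -0.027 without fructose 1. Col5a2 and Col5a3 are named after their values were seen. Col5a2 was at 139.9, 116.6, 142.4 and 146.4 CPM, and Col5a3, a chain of limited tissue distribution, at 139.7, 120.9, 166.5 and 148.2 CPM. Both fructose libraries were above both control libraries in these 2 genes, although neither passed the threshold. The log2 fold change of Col5a3 was 0.27 (95% interval 0.063 to 0.48), with an edgeR adjusted p of 0.0549, and that of Col5a2 was 0.17 (-0.036 to 0.38). Both were called without control 1, at 0.38 for Col5a3 and 0.31 for Col5a2, and without control 2 they were at 0.17 and 0.047. Col5a3 was also called without fructose 2, at 0.36, and was at 0.189 without fructose 1. On all 4 libraries Col5a3 was called with library size alone (0.331), with no filter (0.277) and with a block by replicate number (0.273).

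Col27a1 (ENSMUSG00000045672, chr4:63214004-63334991, plus strand) encodes a fibrillar chain best known from cartilage. It had 272, 185, 414 and 448 counts, or 14.4, 10.3, 18.3 and 18.3 CPM. Both fructose libraries were above both control libraries, and control 2 was the lowest. The log2 fold change was 0.57 ± 0.16 (95% interval 0.22 to 0.92), with an edgeR quasi-likelihood Benjamini-Hochberg adjusted p of 0.0216 and both fructose libraries on the higher side. DESeq2 gave a log2 fold change of 0.56 and also called it. Without control 2 the log2 fold change was 0.35 and missed the threshold, and without control 1 it was 0.83. Its level per length was low, at 1.18 CPM per kilobase. The cartilage chain Col2a1, whose product is the main collagen of that tissue, had 0, 1, 0 and 1 counts, and the chondrocyte markers were low as well. Col11a1, a chain of cartilage fibrils, was at 0.9503, 1.05, 1.28 and 1.27 CPM, and Col11a2 was at 1.003, 1.498, 1.59 and 1.35 CPM. Neither type XI gene passed the test, and the groups of Col11a2 overlapped, with a log2 fold change of 0.23 that was -0.033 without control 1. Both genes are named after their values were seen.

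Basement membrane collagen is type IV, whose 6 chains assemble into networks of fixed chain pairs and triplets. Of the 6 genes 3 were tested. By edgeR 1 was called higher, beside 15.5% of all tested genes. DESeq2 called 0 higher, beside 10.4% of the genes to which it gave an adjusted p. The summed level was 3816, 3603, 3707 and 3839 CPM, and the class median log2 fold change was 0.064. Col4a1 (ENSMUSG00000031502, chr8:11198423-11312826, minus strand), the chain found in every basement membrane, was at 2333, 2238, 2341 and 2436 CPM. Col4a2 (ENSMUSG00000031503, chr8:11312805-11449287, plus strand), its constant partner, was at 1461, 1335, 1331 and 1368 CPM. The fructose libraries lay just above the control libraries for Col4a1 and overlapped them for Col4a2. Neither passed the test, with log2 fold changes of 0.06 ± 0.09 (95% interval -0.13 to 0.26) and -0.05 ± 0.09 (-0.25 to 0.14).

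Col4a5 (ENSMUSG00000031274, chrX:141475385-141689234, plus strand) encodes a chain of the alternative type IV networks and is the X-linked gene of the kidney disease Alport syndrome. It had 427, 544, 773 and 851 counts, or 22.5, 30.2, 34.2 and 34.8 CPM. Both fructose libraries were above both control libraries, while control 2 was nearer to the fructose libraries than to control 1. The log2 fold change was 0.39 ± 0.13 (95% interval 0.11 to 0.67), with an edgeR quasi-likelihood Benjamini-Hochberg adjusted p of 0.0424 and both fructose libraries on the higher side. DESeq2 gave 0.37 and did not call it. The call was also lost without control 1 (0.19), without fructose 1 (0.40) and without fructose 2 (0.38), and without control 2 the value was 0.61. The gene lies on the X chromosome, and the part of fetal sex in its difference cannot be told apart from that of maternal fructose.

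The type IV genes sit in pairs that start head to head on opposite strands. The starts of Col4a1 and Col4a2 on chromosome 8 overlap by 22 exon bases. On chromosome 1, 72 bases separate the starts of Col4a4 and Col4a3, and on the X chromosome 1309 bases separate those of Col4a6 and Col4a5. Col4a3 had 3, 3, 10 and 12 counts, and a counting ratio of fructose to control of 2.88 (95% interval 1.13 to 8.68). Its neighbour Col4a4 had 3, 3, 2 and 5 counts, with a ratio of 0.916 (0.264 to 3.30). Col4a6 had 0, 1, 1 and 1 counts far below its neighbour Col4a5. Both fructose libraries thus held more counts of Col4a3 than both control libraries, while those of Col4a4 overlapped. None of these 3 low-count genes entered the test.

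Beaded filament collagen, type VI, links cells to the surrounding matrix, and 5 of its 6 genes were tested. By edgeR 0 were called higher and 0 lower, and 0 by DESeq2. At an unadjusted p under 0.05 in edgeR 1 was higher and 0 lower, beside 21.5% and 17.8% of all tested genes. Col6a1 (chr10:76708792-76726168, minus strand), a core chain of the microfilament, was at 661, 567, 547 and 548.5 CPM. Col6a2 (chr10:76595762-76623630, minus strand), a core chain that lies beside it on the chromosome, was at 594, 493.5, 488 and 483 CPM. In both genes control 1 was clearly the highest library, and both fructose libraries were under both control libraries by a narrow margin from control 2. Each had a log2 fold change of -0.16, with 95% intervals of -0.37 to 0.038 and -0.38 to 0.049. They passed the threshold without control 2, at -0.27 and -0.29 as given above, and Col6a2 also with the trend on gene length removed. Without control 1 they were nearer to 0, at -0.0529 for Col6a1 and -0.0277 for Col6a2. With the trend on GC content removed alone they were at -0.00906 and -0.0361.

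Col6a3 (chr1:90765923-90843971, minus strand), the long chain whose C-terminal fragment is endotrophin, was at 353.6, 328.3, 366.2 and 354.4 CPM. Col6a6 (chr9:105687809-105828160, minus strand), a chain that can take the place of Col6a3, was at 30.6, 22.9, 33.4 and 34.0 CPM. The fructose libraries were above the control libraries in both, by less than 1 CPM for Col6a3 between the nearest libraries. The log2 fold changes were 0.08 ± 0.08 (95% interval -0.10 to 0.26) and 0.33 ± 0.13 (0.054 to 0.61), with edgeR adjusted p of 0.511 and 0.0746. Col6a6 was called without control 1, at 0.555, and was at 0.14 without control 2. On all 4 libraries Col6a6 was called with no filter (0.338) and with a block by replicate number (0.345). Type VI chains thus lay on both sides of 0, with the core chains below it and Col6a3 and Col6a6 above it. Col6a4, named after its values were seen, had 4, 9, 11 and 10 counts and did not pass the test, with a log2 fold change of 0.34 that was -0.16 without control 1 and 1.06 without control 2. Col6a3 turned to -0.295 with the trend on gene length removed and to -0.19 with that on GC content removed as well.

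FACIT collagens coat fibril surfaces, and 5 of their 9 genes were tested. By edgeR 0 were called in either direction, with 0 at an unadjusted p under 0.05 and 0 by DESeq2, and the class median log2 fold change was 0.024, or -0.11 with the trends on gene length and GC content both removed. Col12a1 was called lower with both trends removed (-0.52) and with the length trend removed alone (-0.51). Col14a1, a FACIT chain of interstitial tissue, was at 75.6, 70.7, 74.5 and 74.3 CPM. Col12a1, a long chain of dense connective tissue, was at 81.5, 95.1, 82.3 and 90.3 CPM. Col16a1, a chain found near cell surfaces and microfibrils, was at 29.8, 26.1, 25.9 and 24.6 CPM. The groups overlapped for Col14a1 and Col12a1, and both fructose libraries were just under control 2 for Col16a1. Log2 fold changes were 0.02 ± 0.08 for Col14a1, -0.03 ± 0.09 for Col12a1 and -0.15 ± 0.11 for Col16a1. Col16a1 was at -0.0529 without control 1 and at -0.238 without control 2. Col9a2, a chain of cartilage type IX, was at 0.792, 0.555, 0.840 and 1.27 CPM, with a log2 fold change of 0.64 (95% interval -0.33 to 1.62). Leaving out a library moved this value from 0.317 (without fructose 2) to 0.921 (without control 1). Col20a1, named after its values were seen, was at 1.32, 1.22, 1.46 and 1.51 CPM, and in both of these low-level genes the fructose libraries lay above the control libraries without passing the test.

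Multiplexins release endostatin-like fragments from their ends. Col15a1, of muscle and vessel basement membranes, was at 273, 202, 289 and 266.5 CPM. Col18a1, the parent of endostatin, was at 97.9, 96.7, 96.4 and 97.7 CPM. Control 2 stood apart as the lowest library for Col15a1, and the groups overlapped for both genes. The log2 fold changes were 0.23 ± 0.12 (95% interval -0.038 to 0.49) and -0.0040 ± 0.08 (-0.18 to 0.17), so the interval of Col18a1 is the narrower of the pair. Col15a1 was called without control 1, at 0.46, and was at 0.026 without control 2. By edgeR on all 4 libraries 0 of the 2 were called, 0 at an unadjusted p under 0.05 and 0 by DESeq2.

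The remaining classes were the least abundant. Among transmembrane collagens, Col23a1 was at 5.02, 5.83, 5.71 and 6.74 CPM and was the most abundant of its class. Col13a1, found at neuromuscular junctions, was at 0.792, 1.55, 1.24 and 0.572 CPM, and Col17a1, a hemidesmosome protein of skin, at 0.9503, 0.777, 0.885 and 0.776 CPM. Col25a1, which is made by neurons, had 3, 0, 2 and 3 counts. Groups overlapped in all of these genes. Among the short chain network formers, Col8a1, of vessel walls, was at 0.8975, 0.277, 0.708 and 0.8985 CPM, and Col10a1, of hypertrophic cartilage, at 0.317, 0.666, 0.708 and 0.163 CPM. Col8a2, a chain of corneal membrane, was at 1.69, 1.55, 1.11 and 1.10 CPM. Col8a2 alone of these 3 had both fructose libraries below both control libraries, with a log2 fold change of -0.55 (95% interval -1.32 to 0.21).

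Col7a1, the anchoring fibril chain under the epidermis, had 5, 12, 20 and 22 counts, or 0.264, 0.666, 0.885 and 0.8985 CPM. Both fructose libraries were above both control libraries, control 1 was the lowest, and the log2 fold change of 0.94 had a 95% interval of -0.19 to 2.08. It was 0.415 without control 1 and 1.74 without control 2, and DESeq2 gave no adjusted p for this gene, Col6a4, Col8a1 or Col10a1. Col28a1, a chain of peripheral nerve, was at 1.27, 1.165, 1.15 and 0.939 CPM, with both fructose libraries below both control libraries. Col26a1 was at 0.739, 0.943, 0.929 and 1.06 CPM with overlapping groups. By edgeR 0 of the 3 anchoring and other genes, 0 of the 3 short chain genes and 0 of the 3 tested transmembrane genes were called, with 0 of them at an unadjusted p under 0.05 and 0 by DESeq2. The 95% intervals of these genes all spanned 0.

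The 11 members that were not tested had few counts in every library. Besides the genes already given by count, Col6a5 had 9, 5, 6 and 10 counts, Col9a1 had 10, 2, 5 and 7, and Col9a3 had 2, 3, 6 and 3. Col24a1 had 0, 1, 3 and 1 counts and Col22a1 had 2, 3, 1 and 0. Col19a1 was at 0 in all 4 libraries, so it was under the floor in each. The counting ratio of Col9a3 was 1.41 (95% interval 0.425 to 5.37). Exons of 4 members overlap a gene of the table on the opposite strand: Col4a1 and Col4a2 with each other, Col10a1 with Nt5dc1 over 18 bases, and Col9a3 with Tcfl5 over 234 bases. Exons of further members overlap annotated genes that the table does not hold. The longest such stretch is 563 bases of Col4a3 with C430014B12Rik on the opposite strand. Gene counts were taken from transcript models merged with Cuffmerge, but the counting program and its strand setting are not given in the sources used here, so reads in these stretches cannot be told apart. Nt5dc1 had 131, 80, 226 and 203 counts and Tcfl5 had 8, 0, 5 and 2.

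**Figure D2:**
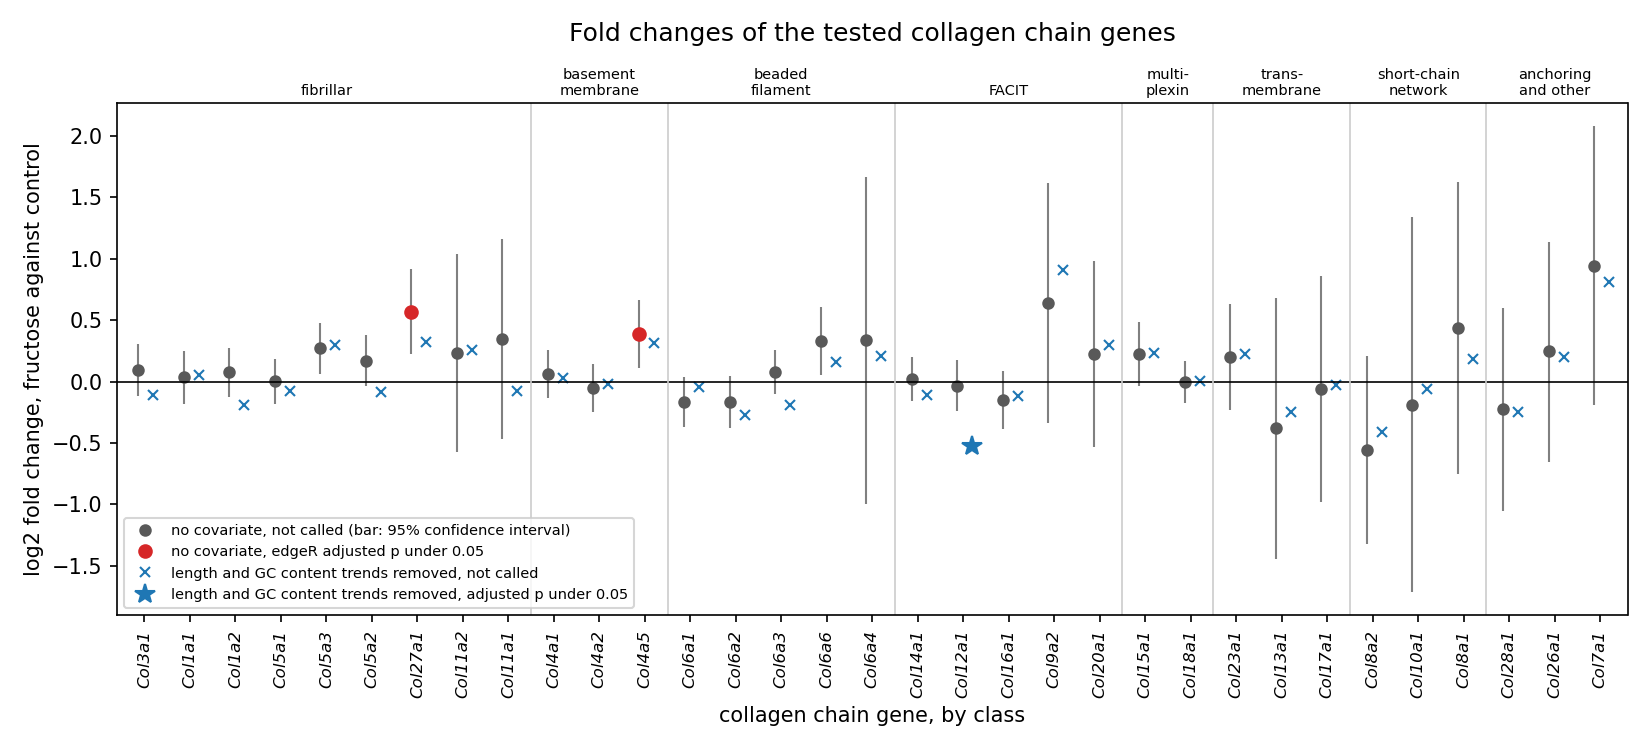
Log2 fold change of fructose over control for the 33 tested collagen genes by class, with bars for the 95% interval, called genes in red, and blue crosses for the value after removal of the trends on gene length and GC content. Col27a1 (0.57) and Col4a5 (0.39) are the called genes, and the blue star marks Col12a1, which was called lower with both trends removed (-0.52).

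Collagen genes are long and rich in G and C, and fold changes in these libraries followed both properties. The tested members had a median exon length of 7013 bases, against 4492 over all tested genes, and a median GC content of 56.4%, against 50.0%. Across 12884 tested genes, which are not independent replicates, Spearman's rho of the log2 fold change was 0.46 with length and -0.50 with GC content. With the length trend removed from each library, 0 collagen genes were called higher by edgeR and 4 lower, beside 9.86% and 8.81% of all tested genes, namely Col12a1 (-0.51), Col6a2 (-0.39), Col1a2 (-0.31) and Col6a3 (-0.295). With the GC content trend removed, 4 were higher, beside 8.47%, namely Col27a1 (0.77), Col5a3 (0.51), Col4a5 (0.43) and Col15a1 (0.38), and 0 lower, beside 8.78%. With both removed, 0 were higher and 1 lower, beside 5.43% and 6.62%, and the median of the members was -0.020.

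Col12a1 was that gene, at -0.52 with an edgeR adjusted p of 0.00471, in a range of 2.1e-05 to 0.885 over all alternatives. Its 95% interval without the correction was -0.24 to 0.18. Col27a1 was at 0.32 and Col4a5 at 0.32 with both trends removed, and neither was called there. Over all genes, 700 were called higher and 853 lower with both trends removed, and 908 of the 3380 calls were kept. With the length trend removed alone they were at 0.16 and 0.24 and not called. Their calls were lost in each setting that removed the length trend, except that Col4a5 was called at 0.325 with both trends removed and the libraries blocked by replicate number. The part of gene length and GC content in these calls was not tested.

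Chains of a single type are needed in fixed proportions in the protein, so their transcript ratios are given per kilobase of the longest transcript. The type I ratio of Col1a1 to Col1a2 was 1.28, 1.22, 1.24 and 1.19, and with the union of exons as length it was 2.68, 2.57, 2.61 and 2.49. By protein, type I collagen holds a pair of Col1a1 chains for each Col1a2 chain. Groups overlapped in this ratio by either length, and the ratio was uniform over the 4 libraries. The type VI ratio of Col6a1 to Col6a2 was 1.33, 1.38, 1.34 and 1.36, again with overlapping groups.

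In 3 ratios the groups did not overlap. No share over all pairs of genes is given here. Among single tested genes, both fructose libraries lay above both control libraries in 33.4% and below both in 31.6%. The ratio of Col4a1 to Col4a2 was 1.56, 1.63, 1.71 and 1.74, so both fructose libraries were above both control libraries. The ratio of Col6a3 to Col6a1 was 0.217, 0.235, 0.272 and 0.262, with the fructose libraries again above the control libraries. The ratio of Col5a1 to Col5a2 was 2.24, 2.54, 2.19 and 2.04, with the fructose libraries below the control libraries. With 2 libraries per group, the smallest p of a two-sided exact permutation test is 0.333, so that test cannot reach 0.05 for these ratios. Their log2 changes were 0.11, 0.24 and -0.17. With both trends removed these became 0.047, -0.15 and 0.0057, so the Col6a3 ratio turned, the Col4a1 ratio shrank and the Col5a1 ratio crossed 0. By the union of exons Col6a3 has 11963 bases against 4380 in Col6a1. Col5a1 has a GC content of 58.0% against 49.6% in Col5a2. Col4a1 and Col4a2 have 7464 and 6619 bases and 57.7% and 60.6% GC. The part of gene length and GC content in these ratios was not tested.

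**Figure D3:**
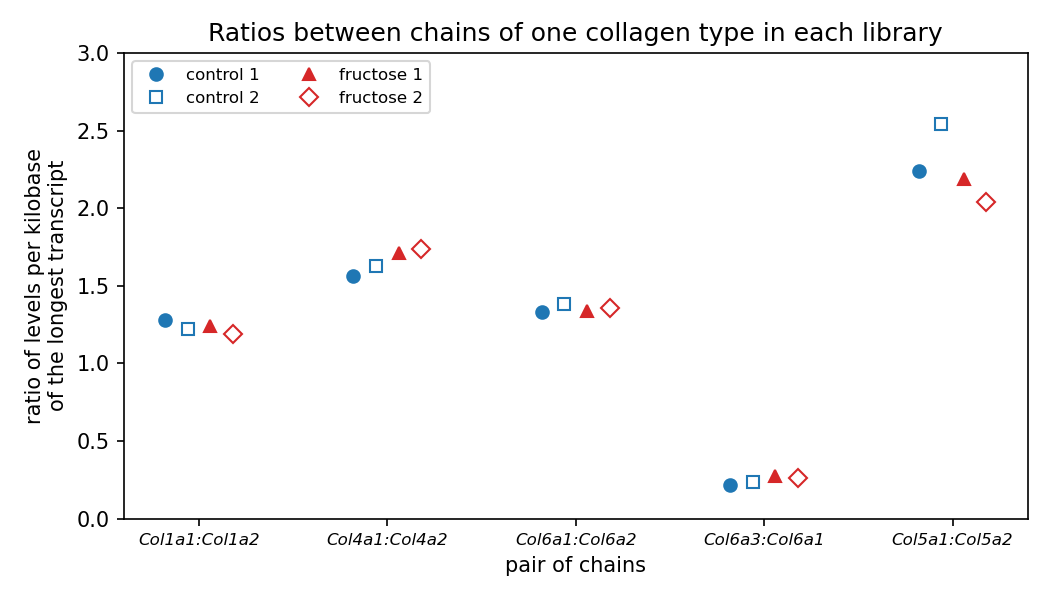
Ratio of CPM per kilobase of longest transcript between chains of the same collagen type, in each of the 4 libraries. The Col4a1 to Col4a2 ratio was at most 1.63 for control and at least 1.71 for fructose, while the Col6a1 to Col6a2 ratio lay between 1.33 and 1.38 in all 4.

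Promoter sequences of RefSeq (GRCm38.p6) were matched to 35 of the 44 genes, giving 38 promoters among 32851 in the table. In the 250 bases upstream of the start, searched on both strands, the GC box letters GGGCGG occurred in 22 collagen promoters (57.9%), against 32.7% of all promoters. The CCAAT box letters CCAAT occurred in 13 (34.2%), against 33.8%, and the TATA box letters TATAAA in 5 (13.2%), against 12.4%. Median GC content of these windows was 59.0% in collagen promoters and 52.4% in all. The 5 promoters with TATAAA belong to Col10a1, Col11a2, Col13a1, Col17a1 and Col3a1. A match describes letters only and is no evidence of binding. Shown are the part of the window of Col4a5, a called gene that starts head to head with Col4a6, that lies outside annotated transcripts, and the whole window of Col3a1, the most abundant chain with TATAAA. The window of Col4a5 also holds GGGCGG, which is not within the stretch shown. Both are from the plus strand of GRCm38, 5′ to 3′, with capitals marking CCAAT in Col4a5 (chrX:141475169-141475369, 201 bases) and TATAAA in Col3a1 (chr1:45311288-45311537, 250 bases).
Col4a5: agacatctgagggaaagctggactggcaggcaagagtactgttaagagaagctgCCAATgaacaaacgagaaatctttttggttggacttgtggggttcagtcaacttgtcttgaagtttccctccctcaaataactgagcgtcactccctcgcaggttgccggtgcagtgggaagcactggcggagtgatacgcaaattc
Col3a1: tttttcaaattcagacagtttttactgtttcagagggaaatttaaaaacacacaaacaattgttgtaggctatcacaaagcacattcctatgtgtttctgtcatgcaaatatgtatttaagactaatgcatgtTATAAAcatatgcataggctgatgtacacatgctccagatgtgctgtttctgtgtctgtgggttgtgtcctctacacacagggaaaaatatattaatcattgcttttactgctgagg

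Collagen needs a set of partner proteins to be modified, folded, processed, fixed in the matrix, sensed and broken down. Over 7 lists of such genes, 117 were tested, and 16 were called higher (13.7%) and 11 lower (9.4%) by edgeR, shares somewhat under the 15.5% and 10.7% of all tested genes against which each list below is read. With a library left out, the shares of all genes were 16.8% higher and 12.8% lower without control 1, 14.4% and 11.2% without control 2, 11.6% and 6.3% without fructose 1, and 9.24% and 3.71% without fructose 2. Of these 27 calls, 19 were kept by DESeq2 and 8 with both trends removed. Over all genes, DESeq2 kept 2324 of 3380 calls and the removal of both trends kept 908. Leaving out a library kept 22 without control 1, 19 without control 2, 13 without fructose 1 and 11 without fructose 2. Mia3, Aspn, Papln and Lamb3 kept their calls by DESeq2, with both trends removed and without any single library.

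Modification and folding genes act on procollagen in the endoplasmic reticulum. All 22 were tested, and 1 was higher and 4 were lower by edgeR. DESeq2 called 1 higher and 3 lower, beside 10.4% and 8.8% of the genes to which it gave an adjusted p. The median log2 fold change by edgeR was -0.18. With both trends removed that median was -0.062, and 1 gene was higher and 2 were lower, namely Plod1 and Tmem38b (-0.365), the latter named after its values were seen. Their summed level was 2192, 2025, 1863 and 1829 CPM, with both fructose libraries below both control libraries. Mia3, whose product TANGO1 loads procollagen into transport carriers, was at 16.1, 14.4, 23.1 and 23.7 CPM. It rose by a log2 fold change of 0.62 ± 0.12 (edgeR adjusted p 0.00438), with both fructose libraries above both controls. P3h4, a partner of the lysyl hydroxylase complex, was at 25.4, 25.1, 16.1 and 19.2 CPM, and Plod1, a lysyl hydroxylase of the helix, at 120.3, 122, 97.6 and 99.8 CPM. Both fell in both fructose libraries, with log2 fold changes of -0.52 ± 0.12 (edgeR adjusted p 0.0102) and -0.30 ± 0.08 (0.0166). P3h4 missed the threshold without fructose 1 (-0.39) and with both trends removed (-0.20), and Plod1 without fructose 1 (-0.28) or fructose 2 (-0.31).

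The other lower genes of that list, named after their values were seen, were Plod3, a lysyl hydroxylase that also adds sugars, and Ppib, the cyclophilin of the same complex. Plod3 was at 83.3, 76.3, 65.6 and 68.2 CPM and Ppib at 163.7, 160.8, 141.4 and 133 CPM, with both fructose libraries lower. Plod3 missed the threshold without control 1 (-0.19), fructose 1 (-0.22) or fructose 2 (-0.28), and Ppib without control 1 (-0.23), fructose 1 (-0.28) or fructose 2 (-0.20). Neither was called with both trends removed (-0.12 and -0.14). The count of lower genes in the list was 2 without control 1, 7 without control 2, 0 without fructose 1 and 1 without fructose 2. Without control 1 the count of higher genes was 3. Serpinh1, the collagen chaperone HSP47, was at 1008, 908.5, 844 and 817.5 CPM, and P4hb, a subunit of prolyl hydroxylase, at 316, 278, 258 and 255 CPM. Both had the fructose libraries below the control libraries and did not pass the test.

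Processing and cross-linking genes trim procollagen outside the cell and join the fibrils. Of 14 genes 10 were tested, 1 was higher and 2 were lower, with a median of -0.068 and a summed level of 511, 519, 472 and 452 CPM. Pcolce, an enhancer of C-propeptide removal, was at 150.5, 130.5, 114.8 and 110.8 CPM, and Loxl1, a lysyl oxidase linked to elastic fibres, at 74.4, 75.6, 62.7 and 51.6 CPM. Lox, the lysyl oxidase that starts cross-links, was at 13.2, 12.4, 15.3 and 19.6 CPM. Pcolce (log2 fold change -0.32 ± 0.09, edgeR adjusted p 0.0222) and Loxl1 (-0.39 ± 0.10, 0.0139) fell in both fructose libraries, and Lox rose in both (0.45 ± 0.15, 0.0459). Loxl1 missed the threshold without fructose 2 (-0.26), Lox without control 2 (0.40) or fructose 2 (0.26), and Pcolce without control 1 (-0.21), fructose 1 (-0.34) or fructose 2 (-0.29). The count of lower genes was 1 without control 1, 1 without fructose 1 and 0 without fructose 2, and that of higher genes was 2 without fructose 1 and 0 without fructose 2. With both trends removed none of the 3 was called by edgeR, and DESeq2 called Pcolce and Loxl1. Tgm2, a transglutaminase that can cross-link matrix proteins, was at 111.2, 143, 130.4 and 121.2 CPM with overlapping groups.

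Fibril-associated proteoglycans and glycoproteins bind to fibrils and set their spacing. Of 20 genes 18 were tested, 3 were higher and 1 was lower, with a median of 0.080 and a summed level of 3531, 3389.5, 3447 and 3442 CPM. Aspn, asporin, a small leucine-rich protein of fibrils, was at 7.60, 3.99, 14.5 and 16.3 CPM. Postn, periostin, a matricellular protein of fibroblasts, was at 58.0, 41.0, 94.8 and 104.9 CPM. Ogn, osteoglycin, was at 3.85, 2.44, 4.95 and 5.72 CPM. All 3 were higher in both fructose libraries and lowest in control 2. The log2 fold changes were 1.40 ± 0.23 for Aspn (edgeR adjusted p 0.00164), 1.01 ± 0.13 for Postn (0.00055) and 0.76 ± 0.25 for Ogn (0.0455). Ogn missed the threshold without control 2 (0.47), fructose 1 (0.86) or fructose 2 (0.65), and by DESeq2, and it was 0.34 and not called with both trends removed. Aspn stayed called with both trends removed, at 0.92, while Postn, with a GC content of 36.3%, was at 0.22 and was not called. Dcn, named after its values were seen, was called lower in that setting (-0.485). Prelp, a proteoglycan that binds collagen and heparan sulfate, fell from 349.5 and 415 CPM to 296 and 306 CPM (-0.35 ± 0.09, edgeR adjusted p 0.0198), with both fructose libraries lower. It missed the threshold without control 2 (-0.22), fructose 1 (-0.32) or fructose 2 (-0.37), and with both trends removed (-0.20). The count of higher genes was 5 without control 1 and 2 without any other single library, and that of lower genes was 2 without control 2 and 0 without either fructose library. Sparc, a collagen-binding glycoprotein and the most abundant of the list, was at 1907.5, 1823, 1889.6 and 1851 CPM with overlapping groups.

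Basement membrane partners of type IV collagen include laminins, nidogens and perlecan. Of 20 genes 19 were tested, 3 were higher and 1 was lower, with a median of 0.18 (-0.011 with both trends removed) and a summed level of 2186, 2093, 2288 and 2371 CPM, with both fructose libraries above both control libraries. Papln, papilin, was at 11.9, 14.7, 21.5 and 23.0 CPM and rose by 0.75 ± 0.14 (edgeR adjusted p 0.00298). Lamb3, a laminin chain of epithelia, was at 49.1, 41.8, 25.8 and 33.2 CPM and fell by 0.62 ± 0.13 on the log2 scale (edgeR adjusted p 0.00495). In both genes the 2 fructose libraries lay together on the same side of the control libraries. With both trends removed they were at 0.84 and -0.64 and stayed called, and Lama4, a laminin chain named after its values were seen, was called lower (-0.32).

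The nidogens bridge laminin and type IV collagen. Nid1 was at 332, 311, 385 and 384 CPM and Nid2 at 92.9, 87.7, 114.2 and 109.9 CPM. Both were higher in both fructose libraries, by log2 fold changes of 0.26 ± 0.08 (edgeR adjusted p 0.0375) and 0.31 ± 0.08 (0.0156). Nid1 missed the threshold without control 2 (0.21), fructose 1 (0.26) or fructose 2 (0.26), and Nid2 without fructose 1 (0.29) or fructose 2 (0.34). Nid2 stayed called with both trends removed (0.36) and Nid1 did not (0.14). The count of higher genes in the list was 5 without control 1, 2 without control 2, and 1 without either fructose library. Hspg2, perlecan, was at 541, 523, 575 and 574 CPM, with both fructose libraries above both control libraries, and did not pass the test.

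Collagen receptors on the cell surface sense the matrix. Of 14 genes 12 were tested, and 5 were higher by edgeR and 3 by DESeq2. By edgeR 0 were lower, with 0 lower at an unadjusted p under 0.05 and 0 by DESeq2. The median was 0.14, or -0.051 with both trends removed, and the summed level was 686, 651, 850.0 and 894 CPM. Cd36, a fatty acid transporter that also binds collagen, was the most abundant at 375, 335, 508 and 555 CPM. Most of the rise in the summed level lay in Cd36. Ddr2, a receptor kinase for fibrillar collagen, was at 7.13, 4.99, 11.9 and 11.2 CPM, and Itga2, an integrin chain that binds collagen, at 2.798, 2.16, 4.07 and 5.35 CPM. All 3 were higher in both fructose libraries, by 0.58 ± 0.09 (edgeR adjusted p 0.00132), 0.93 ± 0.18 (0.00452) and 0.92 ± 0.26 (0.022). Itga2 missed the threshold without control 2 (0.75) or fructose 2 (0.71) and by DESeq2. Itgb1, the shared beta chain of collagen integrins, was at 96.6, 84.5, 110.6 and 109 CPM and rose by 0.28 ± 0.09 (edgeR adjusted p 0.0362), with both fructose libraries higher. It missed the threshold without control 2 (0.19), fructose 1 (0.27) or fructose 2 (0.29).

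Itga1, the partner of Itgb1 for type IV collagen, was named after its values were seen, at 31.6, 31.8, 43.0 and 46.6 CPM and a log2 fold change of 0.50 ± 0.09 (edgeR adjusted p 0.00328, both fructose libraries higher). With both trends removed 0 receptors were called in either direction, Itga1 turned to -0.29 and Ddr2 was at 0.55. Cd36 turned to -0.025 with the GC content trend removed. The count of higher receptors was 5 without control 1, 3 without control 2, 4 without fructose 1 and 3 without fructose 2, and the count of lower receptors was 2 without control 1.

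Breakdown genes include proteases and their inhibitors. Of 21 genes 18 were tested, 1 was higher and 2 were lower, with a median of 0.043 (-0.048 with both trends removed) and a summed level of 1623, 1489, 1597 and 1559 CPM. DESeq2 called 1 higher and 1 lower, beside 10.4% and 8.8% of the genes to which it gave an adjusted p. Timp3, a matrix-bound inhibitor of metalloproteinases, was at 98.0, 91.6, 126.7 and 139.8 CPM and rose by 0.49 ± 0.09 (edgeR adjusted p 0.00234), with both fructose libraries higher. Mmp2, the gelatinase that cuts denatured and type IV collagen, was at 90.8, 79.3, 65.2 and 73.4 CPM, and Ctsl, a lysosomal protease, at 103.5, 107, 84.0 and 90.8 CPM. Both were lower in both fructose libraries, with log2 fold changes of -0.29 ± 0.10 (edgeR adjusted p 0.0395) and -0.27 ± 0.08 (0.0317). Mmp2 missed the threshold without control 1 (-0.20) or fructose 1 (-0.21), and Ctsl without control 2 (-0.24), fructose 1 (-0.21) or fructose 2 (-0.32). Ctsl was at -0.55 and called with both trends removed, and Timp3 (0.22) and Mmp2 (-0.12) were not. The count of higher genes was 2 without control 1, and that of lower genes was 1 without control 1, 0 without fructose 1 and 1 without fructose 2. Ctsb, the most abundant protease of the list, was at 966, 873, 948 and 913 CPM with overlapping groups.

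Genes of TGF-beta signalling, which drives collagen transcription in fibroblasts, were all tested. Of the 18 genes 2 were higher and 1 was lower, with a median of -0.075 and a summed level of 1240.4, 1244, 1137 and 1129 CPM. Ltbp3, which holds latent TGF-beta in the matrix, was at 483, 508, 389.5 and 367 CPM and fell in both fructose libraries (-0.39 ± 0.08, edgeR adjusted p 0.00629). Ltbp3 was the most abundant gene of the list, and its mean CPM fell by more than the mean summed level did. It stayed called with both trends removed (-0.495) and missed the threshold without fructose 2 (-0.345). Tgfb2, a ligand, was at 0.528, 1.28, 1.95 and 2.21 CPM, and Tgfbr1, the type I receptor, at 6.39, 4.77, 8.45 and 8.29 CPM. Both were higher in both fructose libraries, by 1.21 ± 0.41 (edgeR adjusted p 0.0495) and 0.58 ± 0.19 (0.0409), and DESeq2 called neither. After removal of both trends neither was called (1.07 and 0.12), and the list had 0 higher and 2 lower genes, namely Ltbp3 and Smad2 (-0.54). Tgfb2 was at 0.70 without control 1, where it missed the threshold, at 1.97 without control 2, and missed it also without fructose 1 (1.3) or fructose 2 (1.11). Tgfbr1 missed it without control 2 (0.39), fructose 1 (0.57) or fructose 2 (0.60). The count of higher genes was 1 without control 2 and 0 without either fructose library, and that of lower genes was 2 without control 2 and 0 without fructose 2. Tgfbr2, the type II receptor, was at 186, 186, 200.5 and 214 CPM and did not pass the test.

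Markers of the cells that can make collagen were compared in the same libraries. Fibroblast markers were at a summed level of 430.4, 411, 423 and 417 CPM, with 9 of 10 tested, 1 higher and 0 lower, Cd34 the most abundant and Tcf21 at 0 in all libraries. At an unadjusted p under 0.05 in edgeR 1 fibroblast marker was lower, DESeq2 called 0 in either direction, and the summed level overlapped between groups. Cd34 had a log2 fold change of 0.089, not called, with both fructose libraries above both control libraries. With the trends on gene length and GC content removed, Cd34 turned to -0.315 and was called lower, and no fibroblast marker was higher. Smooth muscle and pericyte markers were at 608, 624, 623 and 591 CPM, with all 10 tested, 2 higher and 0 lower by edgeR (2 lower at an unadjusted p under 0.05, 0 by DESeq2), and Mcam the most abundant. After removal of both trends 2 were higher and 1, Cspg4 (-0.365), was lower. Endothelial markers were at 1852, 1820, 1623 and 1698 CPM, with all 10 tested, 1 higher and 3 lower, and Cdh5 the most abundant. The higher gene was Erg (0.75), and the lower genes were Cldn5 (-0.51), Esam (-0.28) and Egfl7 (-0.26), while DESeq2 called 1 higher and 2 lower. Erg stayed higher with both trends removed (0.86) and these 3 were not called (-0.11, -0.080 and -0.079), whereas Emcn (-0.52) and Pecam1 (-0.29) were lower. Schwann cell markers were at 174, 176, 185 and 171 CPM, with 8 of 10 tested, 1 higher and 0 lower by edgeR (0 lower at an unadjusted p under 0.05 and 0 by DESeq2), and Pmp22 the most abundant. Macrophage markers were at 227, 172, 175 and 187 CPM, with all 10 tested, 2 higher, 2 lower, and Csf1r the most abundant. DESeq2 called 1 of them higher and 0 lower, and edgeR with both trends removed also gave 1 higher, Mertk (0.94), and 0 lower, while 3 were lower at an unadjusted p under 0.05 before that removal. Of the brown adipocyte markers Ppargc1a (log2 fold change 1.16) and Elovl3 (0.79) were higher and Adipoq (-0.28) was lower by edgeR, and DESeq2 called 1 higher and 1 lower. After removal of both trends Ppargc1a (0.72), Elovl3 (0.975) and Cidea (0.38) were higher, Fabp4 (-0.38) was lower and Adipoq (-0.079) was not called. The single markers named for their change in this list and in the fibroblast, pericyte, tenocyte, endothelial and macrophage lists were chosen after their values were seen. Dpt is in the fibroblast and fibril-associated lists, and Fmod and Kera are in the tenocyte and fibril-associated lists.

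Tissues that lie next to fetal brown fat were also examined. Skeletal muscle markers stood out, with 9 of 10 tested, all 9 higher by edgeR and by DESeq2, a median log2 fold change of 1.42 and Acta1 the most abundant. Their summed level was 232, 316, 744.5 and 552 CPM, and 8 stayed higher with both trends removed. Chondrocyte markers summed to 2.01, 2.72, 3.10 and 2.25 CPM, with 2 of 10 tested, Acan the most abundant, and Matn1, Matn3, Snorc, Ucma and Epyc at 0 in all libraries. Osteoblast markers summed to 4.70, 3.72, 5.97 and 5.31 CPM, with 2 of 10 tested, Alpl the most abundant, and Bglap and Ibsp at 0. Tenocyte markers summed to 5.07, 3.99, 5.71 and 6.37 CPM, with 3 of 6 tested, Thbs4 the most abundant, and Mkx at 0. Epidermal markers summed to 6.81, 4.66, 5.09 and 7.39 CPM, with 3 of 10 tested, Sfn the most abundant, and Krt14 and Dsg3 at 0. By edgeR 0 genes of these 4 lists were called in either direction and 0 by DESeq2, with 1 tenocyte marker higher at an unadjusted p under 0.05. That marker, Thbs4, was called higher with both trends removed (0.99). Cartilage, bone, tendon and skin markers were thus low in all libraries, and muscle markers were higher in both fructose libraries, while the share of counts from mitochondrially encoded genes was 5.89%, 6.49%, 10.8% and 11.2%. The part of muscle RNA and of mitochondrial RNA in the collagen differences was not tested.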

How the data were processed

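Total RNA sequencing counts per gene, deposited by the authors as raw counts, were analysed. By the submitters' processing notes and the study's methods, reads were filtered with fastp, mapped to mm10 with Bowtie2 2.0.0.5 and TopHat2 2.0.0 and assembled with StringTie 2.2.0, and gene counts were extracted after merging with Cuffmerge. The counting program, strand setting and annotation release are not given in the sources used here. Genes were annotated with GENCODE vM21 (GRCm38), and 43 identifiers of the table had no match. Gene length was the union of annotated exons, with the longest annotated transcript as the alternative.

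In R 4.3.3, the groups were compared by edgeR 4.0.16 (with limma 3.58.1): filterByExpr with a minimum count of 10, TMM normalization and the quasi-likelihood test, two-sided, with Benjamini-Hochberg adjustment over all 12888 genes tested. Intervals (95%) came from the log2 fold change, its standard error and the test's degrees of freedom. The biological coefficient of variation was 8.52%, and the first principal component held 67.3% of the variance. The procedure was also run on simulated data, and no result of that run is given or used here.

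Alternatives were DESeq2 1.42.0, its size factors within edgeR, library size alone, no filter, a mean of at least 10 counts, library sizes without mitochondrial and haemoglobin genes, the length and GC content trends (lowess, span 0.3) removed singly or together, a block by replicate number alone or with these, and leaving out each library in turn.

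Named genes were the 4 members of each class with the highest level per length (all members of a smaller class), up to 5 called members in each direction with the largest change, members of head-to-head pairs, and in each partner list the 3 called genes with the largest change and the 2 with the highest level per length. The members and lists were chosen with earlier results of these data known. Classes, partner lists and cell type markers came from textbook knowledge. Promoter sequences came from RefSeq (GRCm38.p6).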

Additional observations from a re-analysis of the deposited data

How the results depend on the processing

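The collagen calls changed with the library left out and with the trend removed. Against 2 higher and 0 lower genes, DESeq2 gave 1 higher, library size alone 3 (beside 17.4% of all genes), no filter 4 (13.6%), the length trend removed 0 higher and 4 lower with a median log2 fold change of -0.11, the GC content trend removed 4 higher with a median of 0.22, and both trends removed 0 higher and 1 lower. Leaving out each library in turn gave 1 to 5 higher genes and 0 to 2 lower ones, with medians from 0.034 to 0.099, beside 9.24% to 16.8% of all genes higher and 3.71% to 12.8% lower. There the group left with a lone library was assumed to vary like the other. DESeq2's size factors, the mean of at least 10 counts and library sizes without mitochondrial and haemoglobin genes kept both calls, the last by construction, since TMM cancels the change. Where no reason is given, the cause was not tested.

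With the replicate block 4 genes were higher, beside 16.4% of all genes. With the block and the length trend removed 0 were higher and 2 lower (median -0.12, beside 8.95% and 6.8%), with the GC content trend 5 higher (median 0.22, beside 10.5%), and with both 2 higher and 1 lower (7.25% and 7.82%). The libraries share only a number, and the correlation of their deviations between paired libraries was -0.0266.

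Log2 fold changes of collagen genes and of called partner genes that turned sign follow. With DESeq2 Col5a1 was -0.013 and with its size factors -0.0084. With library size alone Col12a1 was 0.030, Col18a1 0.057 and Col4a2 0.011. With no filter Col18a1 was 0.0013. With the length trend removed Col11a1 was -0.0561, Col14a1 -0.14, Col1a1 -0.10, Col1a2 -0.31, Col3a1 -0.19, Col4a1 -0.12, Col5a1 -0.23, Col5a2 -0.11, Col6a3 -0.295 and Itga1 -0.062, and with the block as well -0.0563, -0.14, -0.097, -0.31, -0.19, -0.12, -0.23, -0.10, -0.30 and -0.063. With the GC content trend removed Col16a1 was 0.085, Col17a1 0.10, Col18a1 0.22, Col4a2 0.17 and Cd36 -0.025, and with the block as well 0.088, 0.11, 0.22, 0.17 and -0.025. With both removed Col11a1 was -0.0768, Col14a1 -0.11, Col18a1 0.0064, Col1a2 -0.19, Col3a1 -0.105, Col5a1 -0.080, Col5a2 -0.085, Col6a3 -0.19 and Itga1 -0.29, and with the block as well -0.0769, -0.11, 0.0064, -0.19, -0.10, -0.079, -0.079, -0.19 and -0.29. Of other named genes, Serpinh1 (0.061), Tgm2 (0.10), Ucp1 (0.0515), Cidea (0.38), Hspg2 (-0.17), Tgfbr2 (-0.035), Ctsb (-0.079), Dcn (-0.485) and Lama4 (-0.32) turned with both removed without the block. So did the markers Cd34 (-0.315), Mcam (0.101), Cdh5 (0.0308), Dpt (0.157) and Fmod (0.121).

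Leaving out a library moved Col10a1 from -1.54 to 0.53, Col11a2 from -0.033 to 0.55, Col6a4 from -0.16 to 1.06, Col12a1 from -0.14 to 0.084, Col13a1 from -1.02 to 0.18, Col14a1 from -0.023 to 0.071, Col17a1 from -0.20 to 0.090, Col18a1 from -0.012 to 0.0089, Col1a1 from -0.080 to 0.16, Col1a2 from -0.0097 to 0.17, Col3a1 from -0.0092 to 0.21, Col4a2 from -0.11 to 0.013, Col5a1 from -0.038 to 0.039 and Col8a1 from -0.16 to 1.52. The mean of at least 10 counts left no value for Col10a1 and Col6a4, and leaving out either fructose library left none for Col6a4. Tested members with a mean under 1 CPM have intervals of more than a log2 unit, and the parts of depth and of the spread between 2 libraries per group in them were not tested.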
